A study of Mus musculus with 10 samples.

Results

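MAP kinase cascade genes were taken as all protein-coding genes of GRCm38 with a symbol made of Mapk, Map2k, Map3k or Map4k and a number. This gave 43 of 21887 genes and 279 of the 77076 regions in a table of ATAC-seq read counts. A region belonged to a gene when it overlapped the gene's span, or otherwise when that span was the nearest within 100 kb. The choice used no measured value.

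ATAC-seq measures open chromatin through the insertion of sequencing adapters by a transposase. The cells were regulatory T (Treg) cells sorted from spleen and lymph nodes of mouse mixed bone marrow chimeras, in which blood cells come from more than 1 marrow donor. The groups were Fntb-deficient (FntbKO) eTreg cells (2 libraries), FntbKO cTreg cells (2), wild-type (WT) eTreg cells (3) and WT cTreg cells (3), where eTreg stands for effector Treg and cTreg, as commonly used, for central Treg. Fntb encodes a subunit of protein farnesyltransferase, which attaches a lipid to RAS and other proteins. The driver of the deletion, the sort gates, the age of the animals, and whether a library came from 1 or several animals are not given in the sources used here, so p-values measure only the spread between these libraries.

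In a MAP kinase cascade, MAP4K enzymes can act on MAP3K enzymes, which activate MAP2K enzymes, and these phosphorylate a MAP kinase on a threonine and a tyrosine. In T cells, antigen receptor signals reach the ERK kinases through RAS, RAF and the MAP2K enzymes MEK1 and MEK2, while stress, cytokine and costimulatory signals reach p38 and JNK kinases. Farnesylated RAS sits at the head of the ERK branch.

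Of the 43 genes, 42 had at least 1 region, and Mapk15, an atypical MAP kinase, had none. Map4k4 had 31 regions, Map3k5 22, Map4k3 21, Map3k8 19, Map3k1 16, Map3k20 14 and Map2k6 13. Map3k7 and Map4k5 had 10 each, Mapk14 9 and Map3k13 8. Map3k9 had 7, and 6 each belonged to Map2k5, Map3k2, Map3k3, Map3k4, Map3k14 and Mapk6. Map2k3 and Mapk9 had 5, and Map2k4, Map3k19, Mapk8 and Mapk12 had 4. Map2k2, Map4k1, Mapk3 and Mapk11 had 3, and Map3k6, Map3k11, Map3k15 and Mapk13 had 2. Map2k1, Map2k7, Map3k10, Map3k12, Map3k21, Map4k2, Mapk4, Mapk7 and Mapk10 had 1 region each. By position, 32 regions overlapped a listed start site, 169 lay elsewhere inside a span and 78 lay outside it. A start site here is the window from 250 bases before to 50 after a transcript start in RefSeq (GRCm38.p6), which listed 34 of the 43 genes. Map4k4, Map3k2, Map3k8, Map3k15, Map3k19, Mapk3 and Mapk4 were among the genes not listed. Any region at their starts was therefore counted as inside or outside the span. The gene table gives no exons, so exons and introns were not told apart, and assignment to a gene rests on position alone. The assigned region farthest from its gene lay 96.7 kb from Map4k3 with 1.62 CPM (counts scaled to library size), and the nearest one left out lay 103.0 kb from Map3k7 with 51.7 CPM.

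The bases before the start sites are shown for Map3k3 and Map2k6, with the most accessible start sites, and Mapk13, with the least accessible. They are also shown for Map2k3 and Mapk8, whose called regions lay close to their starts, and for Map2k1, whose listed start had no region. Each is 250 bases of RefSeq sequence on the gene's strand, GRCm38.p6: Map3k3 (chr11:106084337-106084586, plus strand), Map2k6 (chr11:110398852-110399101, plus), Map2k3 (chr11:60931804-60932053, plus), Mapk8 (chr14:33447159-33447408, minus), Mapk13 (chr17:28769067-28769316, plus) and Map2k1 (chr9:64253606-64253855, minus). Capitals mark matches, on either strand, to the GC box GGGCGG, the CCAAT box CCAAT, the AP-1 motif TGANTCA, the ETS motif CCGGAAG or the palindromic cyclic AMP response element (CRE).
Map3k3: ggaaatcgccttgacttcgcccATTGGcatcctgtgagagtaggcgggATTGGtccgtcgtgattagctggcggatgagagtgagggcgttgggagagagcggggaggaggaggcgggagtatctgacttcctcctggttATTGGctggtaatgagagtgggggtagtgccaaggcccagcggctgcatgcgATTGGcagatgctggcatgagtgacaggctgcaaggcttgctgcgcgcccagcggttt
Map2k6: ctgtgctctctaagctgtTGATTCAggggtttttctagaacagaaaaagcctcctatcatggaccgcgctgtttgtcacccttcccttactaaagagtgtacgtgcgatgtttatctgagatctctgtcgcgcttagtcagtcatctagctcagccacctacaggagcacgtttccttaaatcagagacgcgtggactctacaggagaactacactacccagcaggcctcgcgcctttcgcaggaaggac
Map2k3: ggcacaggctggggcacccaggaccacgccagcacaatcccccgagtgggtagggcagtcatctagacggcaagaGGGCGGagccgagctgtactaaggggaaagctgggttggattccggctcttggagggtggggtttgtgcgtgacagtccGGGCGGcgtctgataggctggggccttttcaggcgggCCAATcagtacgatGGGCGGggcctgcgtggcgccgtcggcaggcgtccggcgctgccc
Mapk8: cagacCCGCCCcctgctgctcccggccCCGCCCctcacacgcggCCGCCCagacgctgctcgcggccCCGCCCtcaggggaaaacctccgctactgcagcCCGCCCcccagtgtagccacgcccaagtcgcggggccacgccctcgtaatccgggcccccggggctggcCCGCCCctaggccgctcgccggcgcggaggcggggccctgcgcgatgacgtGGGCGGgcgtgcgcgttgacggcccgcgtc
Mapk13: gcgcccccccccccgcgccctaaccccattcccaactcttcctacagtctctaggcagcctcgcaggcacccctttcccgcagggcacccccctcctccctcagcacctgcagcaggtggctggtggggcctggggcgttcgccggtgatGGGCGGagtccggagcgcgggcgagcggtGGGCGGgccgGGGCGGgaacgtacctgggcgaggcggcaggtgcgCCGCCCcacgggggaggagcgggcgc
Map2k1: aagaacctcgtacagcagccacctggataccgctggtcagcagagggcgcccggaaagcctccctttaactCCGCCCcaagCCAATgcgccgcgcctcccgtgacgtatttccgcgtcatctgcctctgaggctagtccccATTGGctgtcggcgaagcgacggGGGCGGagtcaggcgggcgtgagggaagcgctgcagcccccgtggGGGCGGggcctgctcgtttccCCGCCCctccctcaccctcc
Mapk8 held 7 GC boxes, Map2k1 and Mapk13 4 each and Map2k3 3, while Map3k3 held 4 CCAAT boxes and no GC box, and Map2k6 held a single AP-1 motif. The GC box was found in 58.7% of the 46 windows of MAP kinase genes and in 32.7% of all 32851 windows, and the CCAAT box in 26.1% and 33.8%. All windows belonged to 27025 genes, more than the 21887 protein-coding genes. They thus include other genes and are not a matched set for any share given here. The other shares were 6.52% and 6.91% for the ETS motif, 2.17% and 1.55% for CRE and 6.52% and 6.75% for AP-1. Median GC content was 63.4% in MAP kinase windows and 52.4% in all windows. A region lay at 34 of the 46 windows (73.9%), against 39.2% of all windows, and where one did the GC box shares were 70.6% and 60.4%. Among these windows with a region the shares were 29.4% and 34.9% for the CCAAT box, 5.88% (2 windows) and 14.1% for ETS, 0.0% and 2.79% for CRE, and 5.88% and 4.25% for AP-1. These matches are descriptions of letters and not of bound sites.

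Start sites were the most accessible positions. Per kb of region, the median level, as the mean of 10 libraries, was 35.9 CPM at the 32 start-site regions of MAP kinase genes, 14.8 at the regions inside spans and 16.1 at those outside. Of the start-site regions, 6 also overlapped the span of another gene, at Map3k10, Map3k11, Map4k1, Map4k2, Map4k5 and Mapk14. Over all tested regions these medians were 37.8, 12.5 and 11.2. The highest start-site levels were those of Map3k3, an activator of the ERK5 and JNK branches, with 244 CPM per kb, and Map2k6, which activates p38, with 181. Mapk6, an atypical kinase also called ERK3, followed with 119, the p38 activator Map2k3 with 115 and Mapk9, which encodes JNK2, with 95.3. At the low end stood Mapk13 with 3.58 and Mapk12 with 6.2, which encode the p38δ and p38γ kinases. A second start-site region of Map2k6 (chr11:110479177-110479370) had only 7.84 CPM per kb. Start sites of the p38 branch thus lay at both ends of the range.

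**Figure D1:**
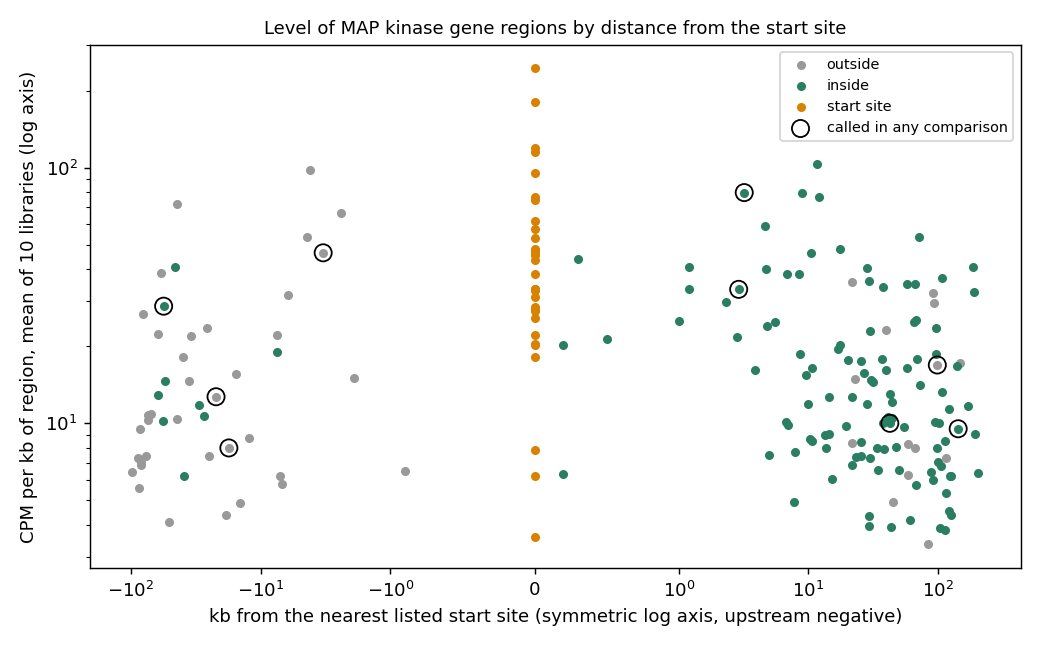
Mean level of each tested region of the MAP kinase genes in the promoter table (CPM per kb of region, log axis) against its distance from the nearest listed start site (kb, symmetric log axis). Start-site regions reach 244 CPM per kb, and every circled region, called in any comparison, lies away from a listed start.

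Total counts were between 5058328 and 15328775 per library, with FntbKO cTreg 2 the deepest and FntbKO eTreg 1 the shallowest. The region over the Fntb start (chr12:76837192-76837915) had 11.6 and 7.48 CPM in FntbKO eTreg and 30.2 CPM at the median of WT eTreg libraries, and 13.1 and 11.2 in FntbKO cTreg against 33.1 in WT cTreg, so every library matched its genotype label. All 5 Treg marker genes had regions, none of the Foxp3 regions was called in any comparison, and of 95 tested regions 5 rose and 1 fell in WT eTreg. Among the 252 tested regions of 8 central T cell genes, 2 rose and 26 fell in WT eTreg. Of 127 regions of 10 effector Treg genes, 12 rose and 1 fell. In FntbKO eTreg over cTreg, 1 rose and 5 fell for central T cell genes, 12 and 0 for effector Treg genes and 1 and 0 for Treg genes. No myeloid, CD8 T or NK cell region was called there. Over all regions, 1.83% rose and 1.61% fell in WT eTreg, and 0.966% and 0.39% in FntbKO eTreg. Of other cell types, 4 of 21 tested regions near myeloid genes rose in WT eTreg, with summed levels of 92.7 to 94.8 CPM in FntbKO eTreg, 77.3 to 81.7 in FntbKO cTreg, 123 to 129 in WT eTreg and 83.6 to 115 in WT cTreg. Lyz2 and Csf1r had no region in the table, nor did the B cell genes Ms4a1 and Cd79b. No B cell or erythroid region was called, and 3 of 35 regions of CD8 T or NK cell genes fell in WT eTreg. B cell genes, 3 of 6 with a region, had lower sums in FntbKO without overlap, at 52.0 to 60.9 CPM in FntbKO eTreg against 63.5 to 70 in WT eTreg, and 47.2 to 49.6 in FntbKO cTreg against 58.5 to 71.2 in WT cTreg. The myeloid sums above were also lower in FntbKO in both subsets. The part of these markers in the results below was not tested. In bulk libraries, more cells with an open region and more opening per cell cannot be told apart.

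The first question was how accessibility at these genes differed between effector and central Treg cells when Fntb was intact. In WT cells, 6 of 278 tested regions of MAP kinase genes rose and 5 fell in eTreg, near 8 genes. These were a Map2k3 region of the p38 branch, 6 regions of MAP3K genes and 4 regions of Map4k4. The share called, 3.96%, was close to the background of 3.44% over all 76216 regions (2619 called, 1.83% higher and 1.61% lower), so the count is no result about the family. A region was called at an adjusted p under 0.05 in the quasi-likelihood test of edgeR, with Benjamini-Hochberg adjustment over all regions. At an unadjusted p under 0.05 there were 61 regions (21.9%), against 18.0% of all. The median log2 fold change was -0.061 over MAP kinase regions and -0.01 over all. None of the 32 start-site regions was called, with a background of 1.29% at start sites, and their log2 fold changes lay between -0.58 and 0.47.

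The same question in FntbKO cells gave 7 called regions near 5 genes, 6 higher and 1 lower in eTreg. They included regions of Mapk8, Map3k2 and Map3k4 and 3 regions of Map4k4. This share was 2.52%, beside a background of 1.36% (1033 regions, 0.966% higher and 0.39% lower). At an unadjusted p under 0.05 the counts were 43 regions (15.5%) and 15.3% of all regions, and the medians were -0.043 and -0.004. No start-site region was called here either, with a background of 0.415%. The largest start-site fold change was that of Mapk13, at 2.20 and 1.57 CPM in FntbKO eTreg against 0.547 and 0.389 in FntbKO cTreg, a log2 fold change of 2.00 with an edgeR adjusted p of 0.229.

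**Figure D2:**
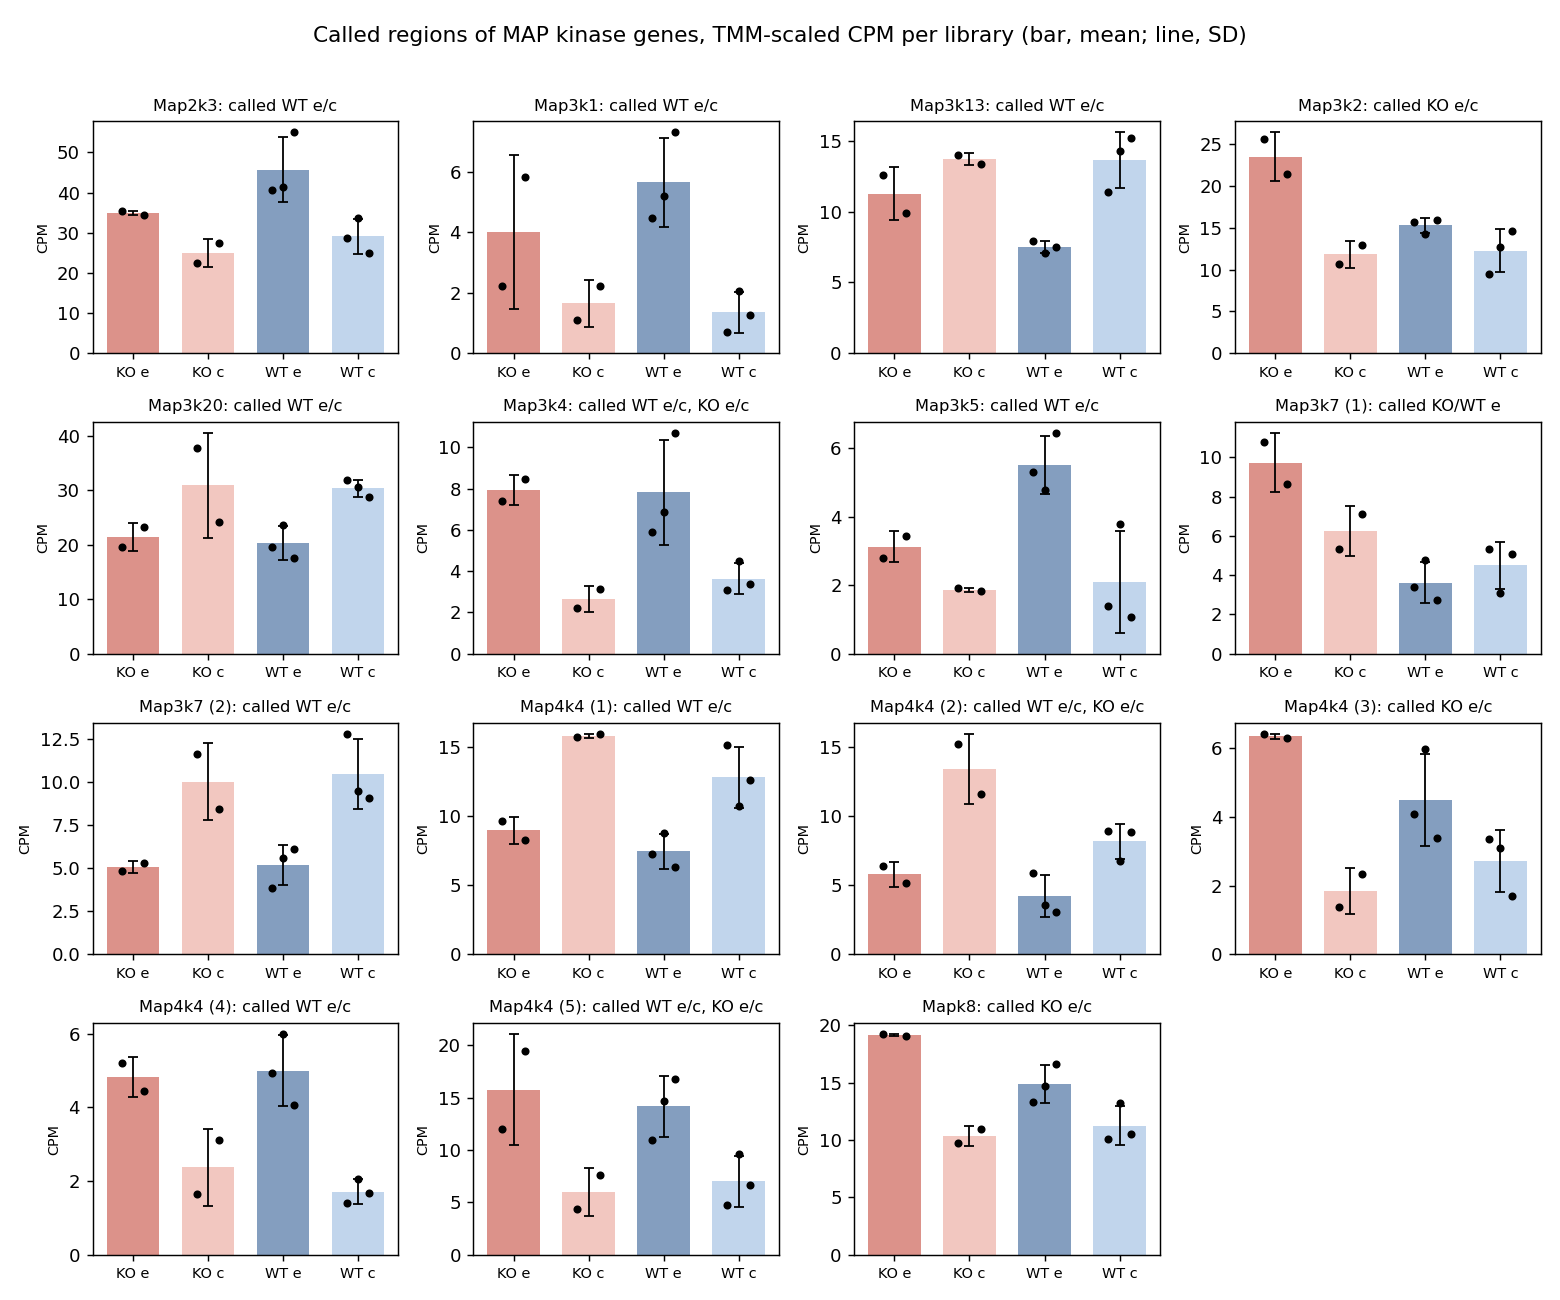
TMM-scaled CPM per library (points), group mean (bar) and SD (line) at 15 regions called in any comparison, in the order FntbKO eTreg (KO e), FntbKO cTreg (KO c), WT eTreg (WT e) and WT cTreg (WT c); titles name the comparison of the call and numbers in brackets follow the coordinate order. The Map4k4 panels show regions that moved in opposite directions between the same groups.

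Within the ERK branch, no region of Mapk3, the gene of the kinase ERK1, or of Map2k1 and Map2k2, the genes of MEK1 and MEK2, was called in any comparison. Mapk3 had summed levels of 8.36 and 11.6 CPM in FntbKO eTreg, 10.3 and 12.6 in FntbKO cTreg, 12.5, 12.6 and 11.4 in WT eTreg and 6.62, 11.6 and 10.7 in WT cTreg. The groups overlapped in both genotypes.

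In the p38 branch, a region inside Map2k3 (chr11:60935259-60935690, 3.2 kb downstream of its start) rose in WT eTreg. Its levels were 40.6, 41.4 and 55 CPM in WT eTreg against 28.6, 33.7 and 25.0 in WT cTreg. FntbKO eTreg libraries had 35.3 and 34.5 CPM, against 22.4 and 27.3 in FntbKO cTreg, so eTreg lay above cTreg in both genotypes. The log2 fold change was 0.65 (SE 0.14, edgeR adjusted p = 0.00868) in WT, lost without WT cTreg 3 or WT eTreg 3 (adjusted p up to 0.0953), and 0.47 (SE 0.17, adjusted p = 0.149) in FntbKO. The start of Map2k3, whose sequence is printed above, had a log2 fold change of 0.13 in WT with an adjusted p of 0.554. No other p38 region was called in any comparison.

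In the JNK branch, a region inside Mapk8, the JNK1 gene, 2.9 kb downstream of its start (chr14:33443894-33444305), rose in FntbKO eTreg. It had 19.2 and 19.1 CPM in FntbKO eTreg against 9.71 and 11 in FntbKO cTreg. WT libraries had 13.3, 14.7 and 16.6 CPM in eTreg against 10.1, 13.2 and 10.5 in cTreg. The groups did not overlap in either genotype, although the lowest WT eTreg and the highest WT cTreg library nearly met. The log2 fold change was 0.88 (SE 0.22, edgeR adjusted p = 0.041) in FntbKO and 0.41 (SE 0.18, adjusted p = 0.239) in WT. The FntbKO call was lost without WT eTreg 1, WT cTreg 3 or any of the 4 FntbKO libraries (adjusted p up to 0.474). No region of the ERK5 genes Mapk7 and Map2k5 or of the atypical kinases was called in any comparison.

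Among MAP3K genes, whose kinases activate MAP2K enzymes, 3 regions rose and 3 fell in WT eTreg. The largest fold change among them was 8.4 kb beyond Map3k1, the gene of MEKK1, at chr13:111826619-111827022, with 4.46, 5.18 and 7.30 CPM in WT eTreg against 0.698, 2.06 and 1.27 in WT cTreg. FntbKO libraries had 2.20 and 5.81 CPM in eTreg against 1.09 and 2.20 in cTreg. The WT groups were separate and the FntbKO groups met at 2.20. Here the log2 fold change was 2.08 (SE 0.44, edgeR adjusted p = 0.00913) in WT, lost on leaving out WT eTreg 3, WT cTreg 1 or WT cTreg 3 (adjusted p up to 0.0735), and 1.27 (adjusted p = 0.204) in FntbKO. A region inside Map3k4, which encodes MEKK4, rose in both genotypes (chr17:12275731-12276284). Its levels were 5.90, 6.87 and 10.7 CPM in WT eTreg against 3.07, 4.47 and 3.38 in WT cTreg, and 7.41 and 8.46 in FntbKO eTreg against 2.19 and 3.11 in FntbKO cTreg. Each eTreg library exceeded each cTreg library. The log2 fold changes were 1.09 (SE 0.30, adjusted p = 0.0384) and 1.55 (SE 0.36, adjusted p = 0.0292). The WT call was lost without WT cTreg 1, WT eTreg 1, WT cTreg 3 or WT eTreg 3 (adjusted p up to 0.23) and under limma-voom. The FntbKO call was lost without FntbKO cTreg 1, FntbKO eTreg 1 or FntbKO eTreg 2 (adjusted p up to 0.433).

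A region inside Map3k5, the gene of the stress-responsive kinase ASK1, also rose in WT (chr10:20077190-20077534). It had 5.30, 4.78 and 6.45 CPM in WT eTreg against 1.40, 3.79 and 1.06 in WT cTreg, and 2.80 and 3.44 in FntbKO eTreg against 1.91 and 1.82 in FntbKO cTreg. WT cTreg 2 stood well above the other WT cTreg libraries, yet below every WT eTreg library. This gave a log2 fold change of 1.46 (SE 0.40, edgeR adjusted p = 0.0394) in WT, lost without any WT library except WT cTreg 2 (adjusted p up to 0.225), and 0.77 (adjusted p = 0.491) in FntbKO. In FntbKO cells, a region inside Map3k2, which encodes MEKK2, rose (chr18:32192088-32192564). It had 25.6 and 21.5 CPM in FntbKO eTreg against 10.7 and 13 in FntbKO cTreg, and 15.7, 14.3 and 15.9 in WT eTreg against 9.5, 12.7 and 14.6 in WT cTreg. The FntbKO groups were far apart while the WT groups overlapped. eTreg over cTreg gave a log2 fold change of 0.97 (SE 0.22, adjusted p = 0.0237) in FntbKO, lost without FntbKO cTreg 1, FntbKO eTreg 1 or FntbKO eTreg 2 (adjusted p up to 0.419), and 0.31 (SE 0.19, adjusted p = 0.395) in WT. The difference between the genotypes, 0.66 (SE 0.29), had an adjusted p of 1.0.

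The 3 MAP3K regions that fell in WT eTreg were near Map3k13, Map3k7 and Map3k20. Inside Map3k13, which encodes the leucine zipper kinase LZK, the region chr16:21835610-21836005 had 7.95, 7.07 and 7.47 CPM in WT eTreg against 11.4, 14.3 and 15.2 in WT cTreg. It had 12.6 and 9.94 CPM in FntbKO eTreg against 14.0 and 13.4 in FntbKO cTreg. The groups were apart in both genotypes, with a log2 fold change of -0.87 (SE 0.20, edgeR adjusted p = 0.0171) in WT and -0.29 (SE 0.24, adjusted p = 0.609) in FntbKO. The WT call was lost without WT eTreg 1, WT eTreg 2, WT cTreg 3 or WT eTreg 3 (adjusted p up to 0.117). Of the 8 Map3k13 regions, 7 had a negative log2 fold change in WT, as did 153 of the 278 MAP kinase regions. Regions of a gene share libraries and are not replicates. Beyond Map3k7, which encodes TAK1, a kinase of the p38, JNK and NF-κB pathways, the region chr4:32062606-32063062 lay 39.1 kb outside the span, with Bach2 as the next gene at 175.4 kb. It had 3.85, 5.58 and 6.11 CPM in WT eTreg against 12.8, 9.46 and 9.09 in WT cTreg, and 4.81 and 5.31 in FntbKO eTreg against 11.6 and 8.43 in FntbKO cTreg. Both genotypes showed lower values in eTreg without overlap. Its log2 fold change was -1.02 (SE 0.25, adjusted p = 0.0235) in WT, lost without WT cTreg 1, WT eTreg 1, WT cTreg 3 or WT eTreg 3 (adjusted p up to 0.135), and -0.95 (SE 0.31, adjusted p = 0.112) in FntbKO.

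Upstream of Map3k20, the gene of the ribotoxic stress kinase ZAK, the region chr2:72281827-72282380 lay 3.3 kb from the start. It had 19.6, 23.7 and 17.6 CPM in WT eTreg against 31.8, 30.6 and 28.7 in WT cTreg, and 19.6 and 23.2 in FntbKO eTreg against 37.7 and 24.1 in FntbKO cTreg. All eTreg libraries lay below all cTreg libraries of their genotype, with FntbKO cTreg 2 the closest. That is a log2 fold change of -0.57 (SE 0.16, edgeR adjusted p = 0.0433) in WT and -0.49 (SE 0.19, adjusted p = 0.201) in FntbKO. Its WT call was the least stable, since it was lost without 7 of 10 libraries, namely WT cTreg 1, WT eTreg 1, WT cTreg 2, WT cTreg 3, WT eTreg 3, FntbKO eTreg 1 or FntbKO eTreg 2 (adjusted p up to 0.21), and under DESeq2 and limma-voom. Leaving out WT cTreg 3 ended all 11 WT calls, and leaving out FntbKO cTreg 1 or FntbKO eTreg 2 ended all 7 FntbKO calls.

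Map4k4, which encodes HGK, a kinase upstream of JNK, held the most called regions, and they moved in both directions. The share called over all regions was 3.44% in WT and 1.36% in FntbKO, and Map4k4 also had the most regions, 31. Inside its span, chr1:39980720-39981367 had 5.90, 3.59 and 3.05 CPM in WT eTreg against 8.94, 6.71 and 8.87 in WT cTreg, and 6.41 and 5.12 in FntbKO eTreg against 15.2 and 11.6 in FntbKO cTreg. This region fell in both genotypes, with log2 fold changes of -0.96 (SE 0.27, edgeR adjusted p = 0.0435) in WT and -1.23 (SE 0.31, adjusted p = 0.0422) in FntbKO. The WT call was lost without WT cTreg 1, WT eTreg 2, WT cTreg 3, WT eTreg 3 or FntbKO eTreg 1 (adjusted p up to 0.199), under DESeq2 and in a fit of the compared groups only, and the FntbKO call without WT cTreg 3, FntbKO cTreg 1, FntbKO eTreg 1 or FntbKO eTreg 2 (adjusted p up to 0.5). A second region that fell in WT lay 5 kb before the span (chr1:39895551-39895905), with 7.23, 8.77 and 6.28 CPM in WT eTreg against 15.1, 10.7 and 12.6 in WT cTreg, and 9.62 and 8.27 in FntbKO eTreg against 15.7 and 15.9 in FntbKO cTreg. Here too the eTreg libraries were all lower. As a log2 fold change this was -0.77 (SE 0.21, adjusted p = 0.0382) in WT, lost without WT cTreg 1, WT eTreg 1, WT cTreg 3 or WT eTreg 3 (adjusted p up to 0.178) or in a fit of the compared groups only, and -0.84 (adjusted p = 0.0818) in FntbKO.

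Elsewhere inside the span, chr1:39986875-39987255 rose in FntbKO eTreg, at 6.41 and 6.30 CPM against 1.37 and 2.33 in FntbKO cTreg. WT libraries had 4.10, 5.98 and 3.39 CPM in eTreg against 3.35, 3.10 and 1.69 in cTreg. There the log2 fold change was 1.71 (SE 0.43, edgeR adjusted p = 0.0401) in FntbKO, lost without WT eTreg 1, FntbKO cTreg 1, FntbKO eTreg 1 or FntbKO eTreg 2 (adjusted p up to 0.493), and 0.78 (adjusted p = 0.244) in WT. Beyond the far end of Map4k4, toward Il1r2, the gene of the decoy receptor for interleukin 1, both called regions rose. The first, chr1:40045743-40046195, lay 19.4 kb from Map4k4 and 38.5 kb from Il1r2, with 4.94, 5.98 and 4.07 CPM in WT eTreg against 1.40, 2.06 and 1.69 in WT cTreg, and 5.21 and 4.43 in FntbKO eTreg against 1.64 and 3.11 in FntbKO cTreg. The second, chr1:40052147-40052659, lay 25.8 kb from Map4k4 and 32.0 kb from Il1r2, with 11, 14.7 and 16.8 CPM in WT eTreg against 4.75, 9.64 and 6.66 in WT cTreg, and 12 and 19.5 in FntbKO eTreg against 4.38 and 7.59 in FntbKO cTreg. All eTreg libraries were above the cTreg libraries of their genotype at both places. The first had a log2 fold change of 1.56 (SE 0.37, adjusted p = 0.0172) in WT, lost without WT cTreg 1, WT eTreg 1, WT eTreg 2 or WT cTreg 3 (adjusted p up to 0.0936), and 0.94 (adjusted p = 0.269) in FntbKO. The second had 1.02 (SE 0.26, adjusted p = 0.0319) in WT, lost without WT cTreg 1, WT eTreg 2, WT cTreg 3 or WT eTreg 3 (adjusted p up to 0.156), and 1.37 (SE 0.31, adjusted p = 0.0278) in FntbKO, lost without FntbKO cTreg 1 or FntbKO eTreg 2 (adjusted p up to 0.465). Summed over its 31 regions, Map4k4 had log2 fold changes of -0.12 in WT and -0.11 in FntbKO, neither of them called.

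**Figure D3:**
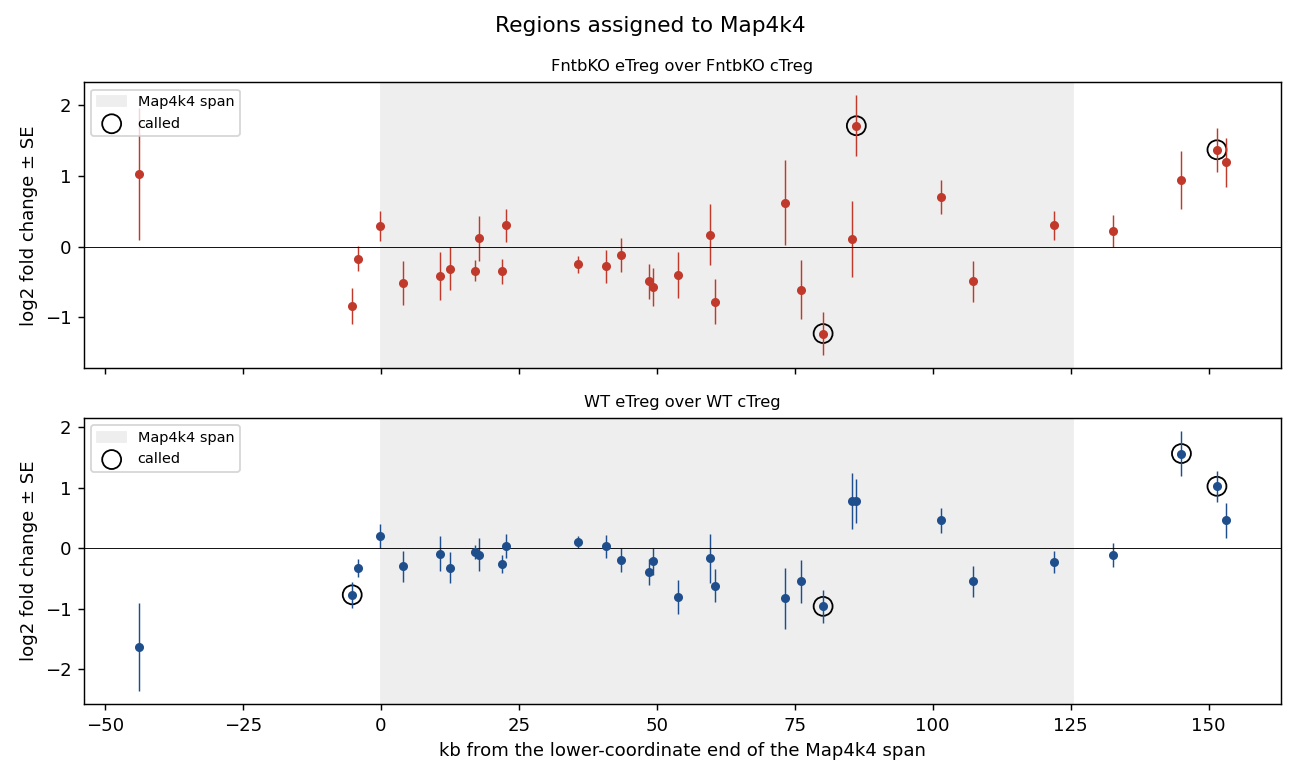
Log2 fold change of eTreg over cTreg, with SE, at the regions assigned to Map4k4 against distance from the lower-coordinate end of its span (grey; kb), for FntbKO above and WT below; circles mark calls. Called regions with negative and positive values lie within one gene, and the called regions beyond its far end are positive in both genotypes.

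The WT and FntbKO comparisons of the subsets have no library in common in their group means, so their overlap could be counted. Both came from the same fit with a shared estimate of the spread, so their calls are not independent. Of the called regions, 3 were called in both, in the same direction, which is 27.3% of the 11 WT calls and 42.9% of the 7 FntbKO calls. They were the Map3k4 region, the falling intragenic Map4k4 region and the Map4k4 region 25.8 kb beyond the span. Over all regions the shares were 15.3% and 38.8%. All 11 WT calls and all 7 FntbKO calls had the same sign in the other genotype, as did 2498 of 2619 WT calls and 1015 of 1033 FntbKO calls over all regions. Across the 278 regions, which share libraries and depth and are not replicates, Pearson's r of both log2 fold changes was 0.506, the same as over all regions. The test of the genotype difference itself, the interaction, called no region (background 0.0%), with 9 MAP kinase regions (3.24%) and 4.07% of all regions at an unadjusted p under 0.05, and DESeq2 and limma-voom called none. The smallest p-values of the interaction, all with an edgeR adjusted p of 1.0, were at a region 78.1 kb from Map3k1 (chr13:111896353-111896651, -2.53, SE 0.77), at an intragenic Mapk14 region (chr17:28701128-28701559, 1.24, SE 0.41), at an intragenic Map2k6 region (chr11:110409795-110410122, 1.28, SE 0.44) and at the Map3k2 region above. The Map2k6 region had 7.21 and 6.30 CPM in FntbKO eTreg against 4.10 and 6.42 in FntbKO cTreg, and 3.37, 3.79 and 2.71 in WT eTreg against 6.42, 7.57 and 5.70 in WT cTreg. Its groups overlapped in FntbKO and not in WT.

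**Figure D4:**
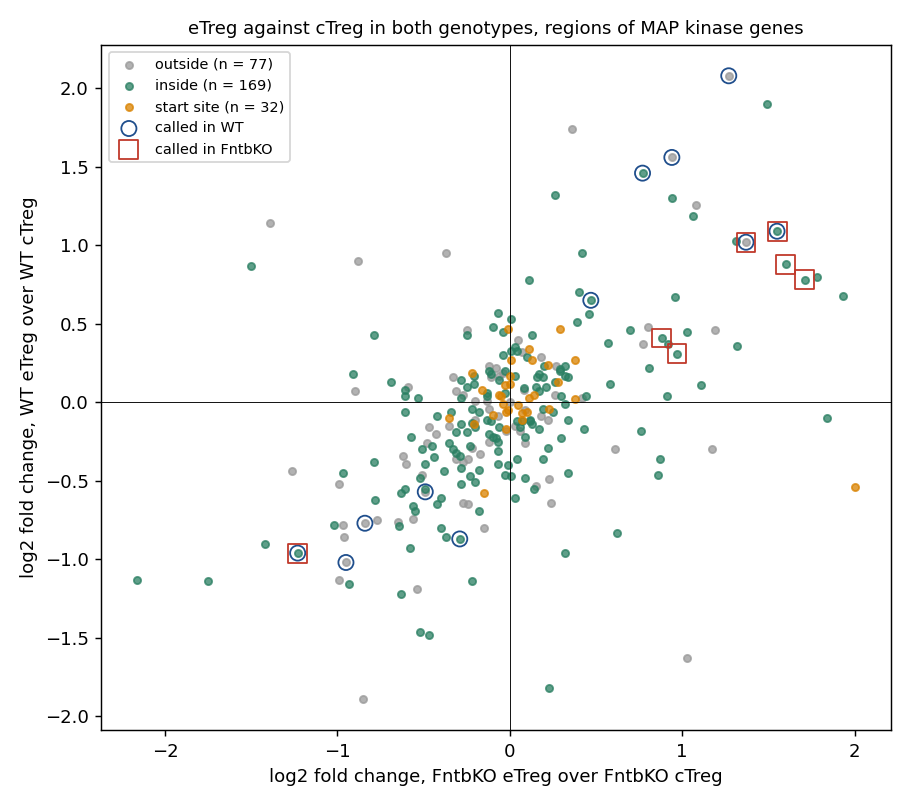
Log2 fold change of eTreg over cTreg in FntbKO (x axis) and WT (y axis) at the 278 tested regions, coloured by position, with calls marked. Start-site regions lie near 0 except Mapk13, at 2.00 in FntbKO, and all called regions lie in the quadrants of equal sign.

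Counts summed over all regions of a gene gave 1 value per gene. In WT, only Map3k13 of the 42 tested genes was called, beside a background of 3.11% (494 of 15899 genes, 1.71% lower). Its 8 regions summed to 36.9, 45.4 and 36.9 CPM in WT eTreg against 56.2, 56.1 and 57.1 in WT cTreg, and to 43.9 and 40.9 in FntbKO eTreg against 57.1 and 57.4 in FntbKO cTreg. The subsets were clearly separate in both genotypes. Here the log2 fold change was -0.50 (SE 0.10, edgeR adjusted p = 0.00808) in WT, lost without WT cTreg 3 or WT eTreg 3 (adjusted p up to 0.0602), and -0.44 (SE 0.12, adjusted p = 0.0556) in FntbKO. In FntbKO no gene was called by edgeR (background 1.86%), with 11.9% of the 42 genes and 15% of all at an unadjusted p under 0.05. DESeq2 called none, and limma-voom called Map3k13 (adjusted p = 0.0452), as did edgeR without WT cTreg 2 (adjusted p = 0.0414) or WT eTreg 2 (adjusted p = 0.0398).

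The p38 activator Map2k3 came next in WT, with 107, 110 and 123 CPM in eTreg against 92.5, 97.7 and 87.5 in cTreg, a log2 fold change of 0.29 (SE 0.08, edgeR adjusted p = 0.0606). DESeq2 called it, with an adjusted p of 0.046. The highest fold changes of sums were otherwise those of genes with 1 region. Mapk10, the gene of JNK3, a kinase known mainly from neurons, had 3.04 and 6.17 CPM in FntbKO eTreg against 1.32 and 1.20 in FntbKO cTreg, and 2.14, 3.67 and 2.06 in WT eTreg against 0.662, 3.69 and 1.03 in WT cTreg. Its log2 fold changes were 1.93 (SE 0.59, adjusted p = 0.0983) in FntbKO and 0.68 (SE 0.51, adjusted p = 0.555) in WT. Without WT cTreg 2, the FntbKO value passed the threshold (1.93, adjusted p = 0.0309). Map4k2, which encodes the germinal center kinase, and Map3k12, the gene of DLK, each stood at 0.44 in WT, with adjusted p-values of 0.193 and 0.347. Map4k2 was at 0.28 and Map2k1 at 0.30 in FntbKO, neither called. At the low end, Mapk13 was at -0.46 and Map3k20 at -0.30 in WT, and Map3k15 at -0.27 and Map3k20 at -0.25 in FntbKO, with none called. The 95% interval lay within 1 log2 unit of 0 for 39 genes in WT and 38 in FntbKO.

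**Figure D5:**
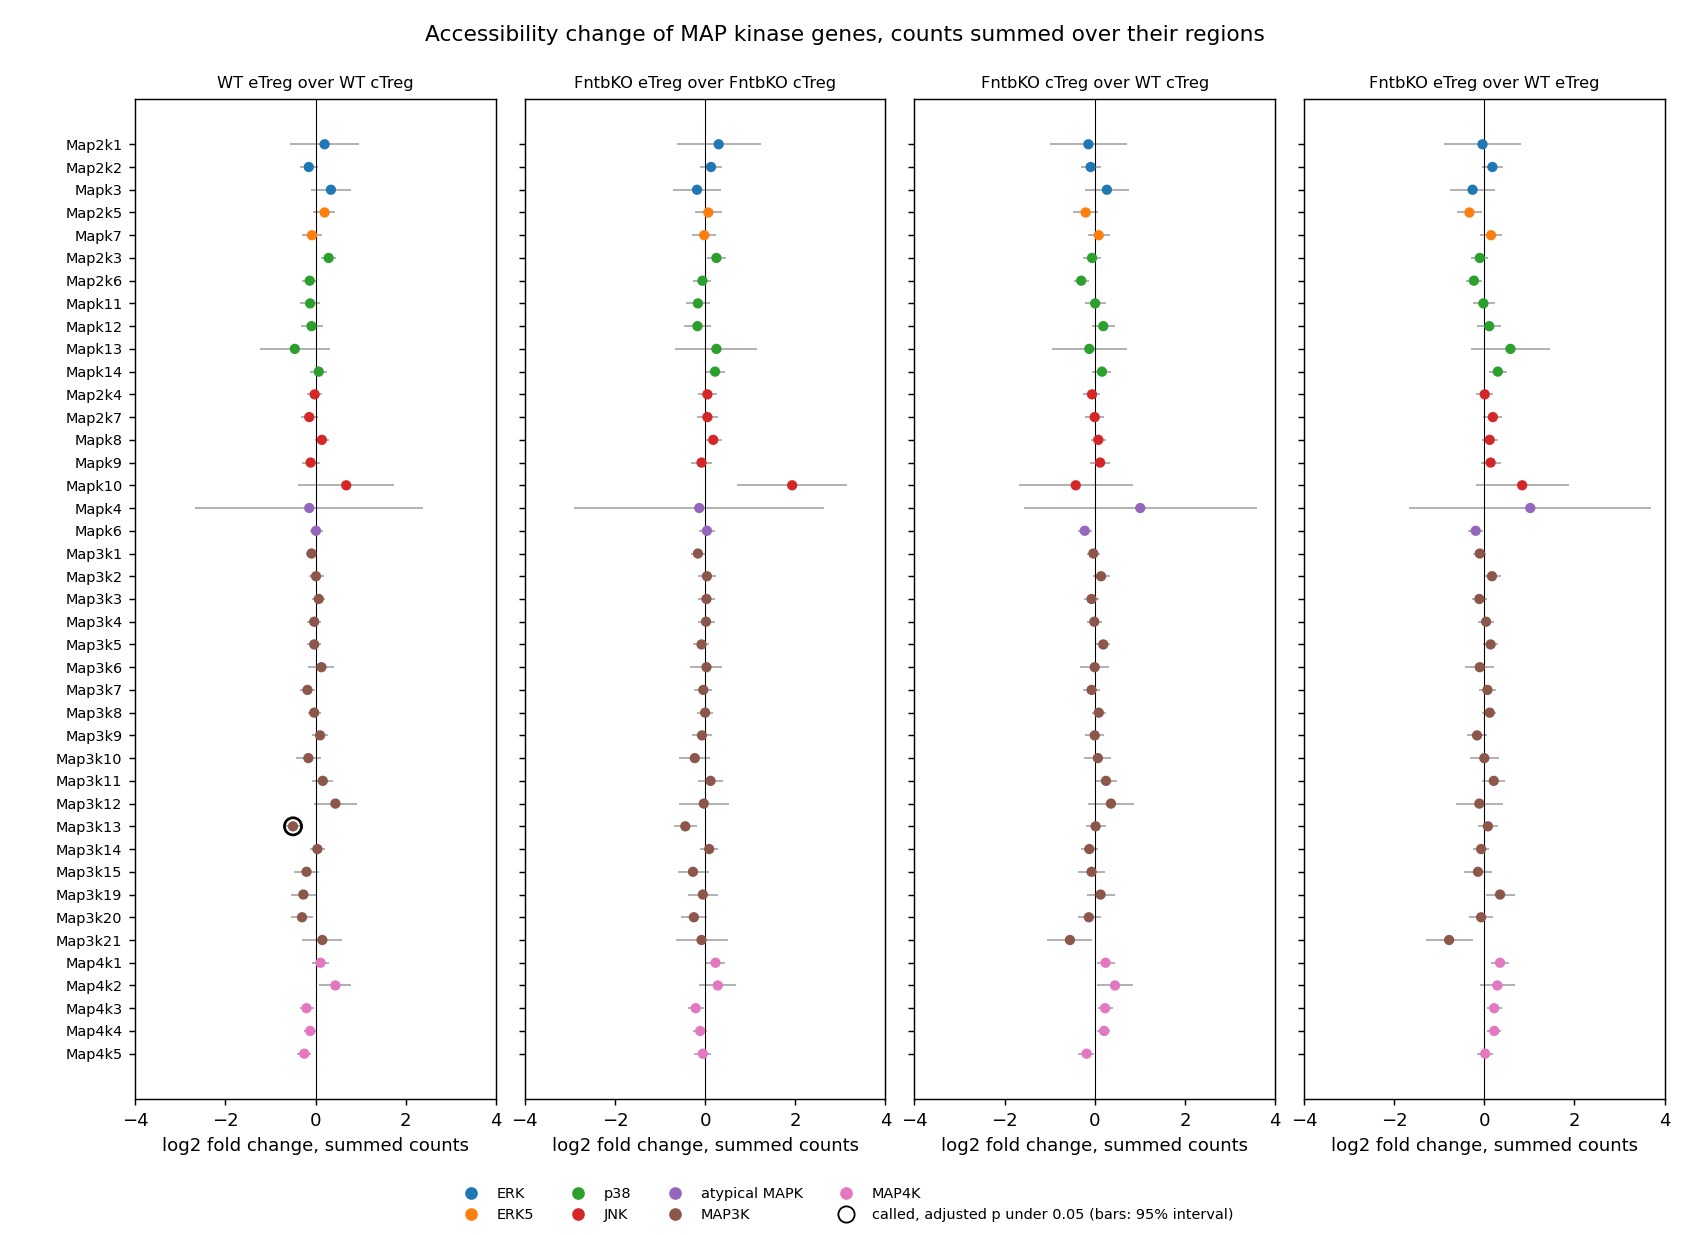
Log2 fold change of summed counts (x axis) with its 95% interval for 41 genes with a region, in 4 comparisons, coloured by module; black circles mark calls. Map3k13 at -0.50 in WT is the single call, and Mapk4 and Mapk10 have the widest intervals.

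The loss of Fntb was then compared within each subset. In cTreg, no MAP kinase region was called in FntbKO over WT (background 0.568%, 433 regions, 0.19% higher and 0.378% lower; 0.484% at start sites), with 34 (12.2%) and 12.4% of all regions at an unadjusted p under 0.05, and neither DESeq2 nor limma-voom called any. The smallest p was that of a region 78.1 kb from Map3k1 (chr13:111896353-111896651), with 3.01 and 3.37 CPM in FntbKO cTreg against 0.838, 0.344 and 1.16 in WT cTreg. The groups were separate, and the log2 fold change was 1.95 (SE 0.53, edgeR adjusted p = 0.0885). Map4k5 held a pair of regions with lower values, at chr12:69863461-69863871 with 12 and 12.7 CPM in FntbKO cTreg against 17.9, 20 and 19.6 in WT cTreg (log2 fold change -0.63, adjusted p = 0.129), and at chr12:69838403-69838740 with 2.19 and 1.56 against 4.75, 4.30 and 5.49 (-1.41, adjusted p = 0.136). Inside Mapk14, the gene of p38α, chr17:28701128-28701559 had 2.87 and 6.94 CPM in FntbKO cTreg against 8.10, 10.7 and 10.7 in WT cTreg (-0.92, adjusted p = 0.159). None of these separations passed the threshold with all libraries, and the Mapk14 region passed it without FntbKO cTreg 2 (-1.77, adjusted p = 0.0249), where a single FntbKO cTreg library, at 2.87 CPM, was left. In every such fit with 1 library left in a FntbKO group, that library is assumed to vary like those of the other groups. No gene was called on summed counts (background 2.34%, 0.925% higher and 1.42% lower), with 21.4% of the 42 genes and 19.0% of all at an unadjusted p under 0.05. DESeq2 called Map2k6, which had 126 and 124 CPM in FntbKO cTreg against 144, 173 and 145 in WT cTreg, a log2 fold change of -0.30 (SE 0.09, adjusted p = 0.0671 in edgeR and 0.0419 in DESeq2). Without WT cTreg 1, edgeR called it as well (-0.34, adjusted p = 0.0442). The other extreme sums were Map3k21 at -0.55, Mapk10 at -0.42, Mapk4 at 1.01, Map4k2 at 0.45 and Map3k12 at 0.36, none called. Without WT cTreg 2 the Mapk10 value was 0.52, and without FntbKO cTreg 1 the Mapk4 value was -0.33, so their signs rested on single libraries.

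In eTreg, 1 of 278 regions was called higher in FntbKO over WT, a share of 0.36% beside a background of 0.35% (267 regions, 0.181% higher and 0.169% lower; 0.277% at start sites). It lay 21.5 kb before Map3k7, the TAK1 gene (chr4:31941519-31941963), with 10.8 and 8.66 CPM in FntbKO eTreg against 3.37, 4.78 and 2.71 in WT eTreg. FntbKO cTreg libraries had 5.33 and 7.13 CPM, against 5.31, 3.10 and 5.07 in WT cTreg. FntbKO libraries were above WT libraries in both subsets, by the larger margin in eTreg. This gave a log2 fold change of 1.38 (SE 0.32, edgeR adjusted p = 0.0481) in eTreg and 0.47 (SE 0.31, adjusted p = 0.569) in cTreg. The eTreg call was lost without WT eTreg 1, WT cTreg 3, WT eTreg 3, FntbKO eTreg 1 or FntbKO eTreg 2 (adjusted p up to 0.372), and with DESeq2 size factors or total counts as the scaling. Other regions missed the threshold. A region 0.1 kb from Map3k19 (chr1:127812681-127813381) had 17.2 and 22.6 CPM in FntbKO eTreg against 11.7, 13.3 and 8.82 in WT eTreg (log2 fold change 0.82, adjusted p = 0.0915). A Map4k4 region (chr1:40022584-40023102) had 19.2 and 27.4 against 14.7, 14.7 and 13.7 (0.71, adjusted p = 0.0928).

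Lower values were seen in FntbKO eTreg inside Map2k5, the gene of the ERK5 activator MEK5. At chr9:63277467-63277690 the levels were 0.0 and 0.984 CPM in FntbKO eTreg against 4.10, 3.09 and 2.71 in WT eTreg, and 0.274 and 0.648 in FntbKO cTreg against 1.40, 1.55 and 1.06 in WT cTreg. FntbKO libraries lay below WT libraries in both subsets, at low depth, with a log2 fold change of -2.42 (SE 0.69, edgeR adjusted p = 0.119) in eTreg and -1.36 (adjusted p = 0.436) in cTreg. A region 14.4 kb from Mapk6 (chr9:75424402-75424608) had 0.0 and 0.590 CPM in FntbKO eTreg against 2.89, 1.49 and 2.55 in WT eTreg (-2.58, adjusted p = 0.232). On summed counts no gene was called in eTreg (background 0.742%), with 21.4% of the 42 genes and 15.5% of all at an unadjusted p under 0.05, and DESeq2 and limma-voom called none. The lowest sums were Map3k21 at -0.78, Map2k5 at -0.33 and Mapk3 at -0.26, and the highest Mapk4 at 1.02 (-0.07 without FntbKO eTreg 1), Mapk10 at 0.84 and Mapk13 at 0.58. The interaction called no gene, with no MAP kinase gene and 2.96% of all genes at an unadjusted p under 0.05, and no call by DESeq2 or limma-voom. Its extremes were Mapk3 at -0.53, Map3k12 at -0.47 and Map3k21 at -0.22, and Mapk10 at 1.25, Mapk13 at 0.71 and Map2k2 at 0.27.

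By module, the MAP4K regions had the highest medians in FntbKO over WT and the lowest in eTreg over cTreg. The median log2 fold change of their 66 regions was 0.187 in cTreg and 0.282 in eTreg, against -0.006 and -0.001 over all regions, and 46 and 49 of the 66 were positive. Of these 66 regions, 31 belonged to Map4k4 and 21 to Map4k3. The module values thus describe mostly these genes, and regions of a gene are not replicates. WT eTreg libraries enter FntbKO over WT eTreg and WT eTreg over cTreg with opposite sign. FntbKO cTreg libraries do so in FntbKO over WT cTreg and FntbKO eTreg over cTreg, so the medians are not independent. In eTreg over cTreg the MAP4K median was -0.099 in FntbKO, close to -0.086 for p38, and -0.229 in WT. Of the 66 MAP4K regions, 30 and 20 were positive. The central T cell list moved the same way, with sums of 3091 to 3101 CPM in FntbKO eTreg against 2561 to 2947 in WT eTreg, and 3453 to 3561 in FntbKO cTreg against 3147 to 3356 in WT cTreg. Effector Treg genes had lower sums in FntbKO, at 1420 to 1550 CPM in FntbKO eTreg against 1565 to 1720 in WT eTreg, and 1195 to 1284 in FntbKO cTreg against 1301 to 1562 in WT cTreg. The part of these lists in the MAP4K medians was not tested. No MAP4K region was called in FntbKO over WT, and other scalings left the medians at 0.170 to 0.188 and 0.271 to 0.282. Map4k1, the gene of HPK1, a brake on T cell receptor signalling, summed to 86.6 and 82.0 CPM in FntbKO eTreg against 63.2, 66.4 and 68.4 in WT eTreg, and to 70.7 and 73.0 in FntbKO cTreg against 60.3, 54.6 and 67.3 in WT cTreg. Both subsets had higher sums in FntbKO without overlap, with log2 fold changes of 0.35 (SE 0.10, edgeR adjusted p = 0.0742) in eTreg and 0.24 (SE 0.10, adjusted p = 0.181) in cTreg. The eTreg value of Map4k1 passed the threshold with the compared groups only (adjusted p = 0.0365) and without WT cTreg 2 (adjusted p = 0.0398). Map4k4 summed to 337 and 362 CPM in FntbKO eTreg against 285, 327 and 288 in WT eTreg, and to 372 and 382 in FntbKO cTreg against 322, 315 and 341 in WT cTreg. Its log2 fold changes were 0.22 (adjusted p = 0.121) and 0.21 (adjusted p = 0.106). Map4k3, which encodes GLK, had 0.22 (adjusted p = 0.181) and 0.23 (adjusted p = 0.116). Map4k5 had 0.02 in eTreg and -0.18 in cTreg, so the gene sums of the module were not uniform. The other modules had medians from -0.307 to 0.011 in cTreg and from -0.458 to 0.141 in eTreg.

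The other genes of the pathway were counted over 6 lists holding 103 genes, of which 101 had a region, with 925 regions tested. In WT eTreg over cTreg, 10 rose and 12 fell (2.38%, background 3.44%), and in FntbKO 6 rose and 3 fell (0.973%, background 1.36%). No region of the lists was called in FntbKO over WT, in cTreg (background 0.568%) or in eTreg (background 0.35%). Phosphatases and feedback inhibitors such as the DUSP and Sprouty families held 4 rising and 5 falling regions of 199 in WT, and 0 rising and 2 falling in FntbKO. Transcription factors phosphorylated by MAP kinases held 3 and 4 of 237 in WT and 4 and 0 in FntbKO. RAS proteins with their exchange factors and GAPs held 0 and 2 of 168 in WT and 0 and 1 in FntbKO. Kinases with other symbols, the RAF kinases among them, held 1 and 0 of 120 in both genotypes, scaffolds and adaptors 1 and 0 of 126 in WT and none in FntbKO, and downstream kinases 1 and 1 of 75 in WT and 1 and 0 in FntbKO.

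On summed counts, 3 of the 101 genes of the lists were called in WT eTreg over cTreg by edgeR (background 3.11%), 1 in FntbKO eTreg over cTreg (background 1.86%) and 4 in FntbKO over WT cTreg (background 2.34%). These counts are small, and the first is near the background. Whether these calls held without single libraries or with other tools was not examined. Dusp16, a phosphatase of JNK and p38, rose by 0.35 (SE 0.10, adjusted p = 0.0471) on the log2 scale, as did Mapkapk3, a kinase activated by p38, by 0.35 (SE 0.09, adjusted p = 0.0445). Rasgrp1, which loads RAS with GTP after antigen receptor stimulation, fell by 0.19 (SE 0.05, adjusted p = 0.0487). In FntbKO, the phosphatase gene Dusp14 rose by 0.93 (SE 0.18, adjusted p = 0.0116). In FntbKO over WT cTreg, Jun, a transcription factor activated by JNK, rose by 0.26 (SE 0.06, adjusted p = 0.0304) and Sh3rf1, a JNK scaffold, by 0.25 (SE 0.06, adjusted p = 0.0355). In the same comparison Ksr2, a scaffold of the RAF cascade, fell by 0.53 (SE 0.11, adjusted p = 0.0137) and the transcription factor gene Mef2c by 0.34 (SE 0.09, adjusted p = 0.0375). No gene of the lists was called in FntbKO over WT eTreg.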

How the data were processed

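ATAC-seq libraries of 10 Treg samples in 4 groups were analysed. The authors deposited raw read counts for 77076 regions, not normalized. Per the submitters' processing notes, the tools included bedtools, MACS2 2.1.1, SAMtools, Picard 2.9.4 and Trimmomatic 0.36, on mm10 (GRCm38); the aligner and the merging of regions are not given in the sources used here. Between 66.73% and 79.24% of counts per library were even, so mates may have been counted separately, and halved counts were an alternative. The table does not state whether coordinates start at 0 or 1.

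Counts were tested with edgeR 4.0.16 (R 4.3.3): TMM scaling, filterByExpr on the 4 groups (minimum count 10), 1 mean per group, quasi-likelihood test with robust dispersions and 6 residual degrees of freedom, and Benjamini-Hochberg adjustment over 76216 regions or 15899 genes. This left 278 of 279 MAP kinase regions; 1 region near Map3k7 fell below the filter. CPM values are TMM-scaled. DESeq2 1.42.0 and limma 3.58.1 were alternatives, with other scalings, filters, assignments, halved counts, replicate blocks and left-out libraries. The fits were tested on simulated data. Regions were assigned with RefSeq gene spans of GRCm38.p6, and all 43 gene symbols matched. Values are given for called regions, for the 4 smallest p-values where fewer were called, for the strongest region of each module, and for the 3 highest and 3 lowest gene sums per comparison. Map2k3, Map4k1, Map4k3, Map4k4 and Map4k5 sums and the Mapk13 start site were named after their values were seen. The values of 1 MAP kinase gene and 1 marker gene are not reported here, though counts over all genes include them. Members and lists were chosen with earlier results of these data known.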

Additional observations from a re-analysis of the deposited data

Results flagged for a closer look

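A region 78.1 kb from Map3k1 (chr13:111896353-111896651) had differences of opposite sign in the 2 genotypes and in the 2 subsets. FntbKO eTreg libraries lay below FntbKO cTreg libraries, while WT eTreg libraries lay above WT cTreg libraries. FntbKO lay above WT in cTreg and, by a small margin, below it in eTreg. The eTreg levels were 1.40 and 1.08 CPM in FntbKO against 1.69, 2.19 and 1.53 in WT. That log2 fold change was -0.58 (SE 0.56, edgeR adjusted p = 0.724), and libraries had counts of only 2 to 52 here. The interaction was -2.53 (SE 0.77, edgeR adjusted p = 1.0), so the difference did not pass the test. An intragenic Mapk14 region (chr17:28701128-28701559) was lower in every FntbKO cTreg library than in WT cTreg (2.87 and 6.94 CPM against 8.10, 10.7 and 10.7) and higher in every FntbKO eTreg library than in WT eTreg (8.82 and 10.0 CPM against 7.47, 8.77 and 6.45). Its interaction was 1.24 (SE 0.41, adjusted p = 1.0), which was not called either.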

How the results depend on the processing

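With 2 or 3 libraries per group and region levels of a few CPM, a missed call does not show equal accessibility. No called region kept its call without each library in turn. Counts below are of called MAP kinase regions unless genes are named, and the cause of the changes was not tested.

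WT eTreg over cTreg had 11 regions. This became 20 without WT cTreg 2 and FntbKO cTreg 1 together, 19 with a replicate block within genotype, 16 with a replicate block, 5 with regions inside spans only, and 0 to 19 over left-out libraries. FntbKO eTreg over cTreg had 7, which became 0 without those 2 libraries, 12 and 10 with the blocks and 0 to 10 over left-out libraries. FntbKO over WT cTreg had 0, 1 with the replicate block and 0 to 1 over left-out libraries. FntbKO over WT eTreg had 1, which became 0 with DESeq2 size factors, total counts, regions inside spans or within 10 kb only, 3 with the compared groups only, 2 without the 2 libraries and 0 to 1 over left-out libraries. The interaction stayed at 0 under every alternative run.

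Called genes in WT eTreg over cTreg numbered 1, but 2 with DESeq2, 3 without the 2 libraries, 4 and 5 with the replicate block over all groups and within genotype, 2 with regions inside spans and 0 to 2 over left-out libraries. FntbKO eTreg over cTreg had 0, but 1 with limma-voom, halved counts or compared groups only, 2 with either block and 0 to 2 over left-out libraries. FntbKO over WT cTreg had 0, but 1 with total counts or DESeq2, 2 with the block and 0 to 1 over left-out libraries. FntbKO over WT eTreg had 0, but 1 with compared groups only or without the 2 libraries, 2 with the block (Map4k1, 0.40, adjusted p = 0.0150, and Map4k3, 0.26, adjusted p = 0.0413) and 0 to 1 over left-out libraries. Map4k3 was also called with the block in FntbKO over WT cTreg (0.28, adjusted p = 0.0205).

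The labels do not say that replicate numbers pair the samples, so the block is only an alternative, and the main fit ignores any pairing. Same-numbered WT cTreg and eTreg libraries had correlations of 0.165, 0.0833 and 0.0317 of their deviations from the group means. Different-numbered WT ones had values between -0.13 and 0.0439. In FntbKO the values were 0.18 and -0.18, whose equal size follows from having 2 libraries per group. Whether the numbers mark pairs was not tested. The sign turned for 2 uncalled gene sums. Mapk10 in FntbKO over WT cTreg was 0.47 without WT cTreg 2 and FntbKO cTreg 1, and 0.52 without WT cTreg 2 alone. Mapk4 was -0.80 without both libraries and -0.33 without FntbKO cTreg 1 in the same comparison, where left-out libraries gave up to 1.97, and -0.07 without FntbKO eTreg 1 in FntbKO over WT eTreg, where they gave up to 1.75.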
